A study of Rattus norvegicus with 6 samples.

Results

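AMPA receptors carry most of the fast excitatory current at glutamatergic synapses, and the 10 genes described here encode their pore-forming subunits and the auxiliary proteins best known to travel with them. They are the GluA subunits Gria1, Gria2, Gria3 and Gria4, the transmembrane AMPA receptor regulatory proteins (TARPs) Cacng2, Cacng3, Cacng4 and Cacng8, and the cornichon homologues Cnih2 and Cnih3. They were picked by name out of 26405 genes in the table, with earlier results of these data known. Counts over the 10 are therefore no test of the list. All 10 were found in the table and all 10 passed the filter on low counts, which kept 13917 genes.

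RNA was sequenced from 3 S-SCAM KD cultures and 3 Control cultures of dissociated hippocampal neurons prepared from embryonic rats, with the genotype given in the labels as S-SCAM KD and as WT. S-SCAM, also called MAGI2, is a postsynaptic scaffold protein encoded by Magi2. The S-SCAM KD cultures received at day in vitro (DIV) 2 a lentivirus with 1 shRNA sequence against S-SCAM, and the Control cultures received a lentivirus that is described as an empty shRNA vector in the labels and as a control shRNA elsewhere in the study. RNA of all 6 cultures was taken at DIV 9, and the vector coexpresses EGFP. The virus was applied to whole cultures, which also hold glia, so the shRNA was not limited to 1 cell type. The comparison asks whether transcripts of the AMPA receptor complex differed after the knockdown.

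A GluA receptor is a tetramer whose subunit mix sets its conductance, its calcium permeability and its traffic. TARPs bind the assembled channel, promote its delivery to the surface, slow its closing and tie it to postsynaptic scaffolds through a PDZ-binding tail. S-SCAM is itself a PDZ scaffold known to bind TARPs. Cornichons help the receptor leave the endoplasmic reticulum and slow its gating.

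The target gene was measured first as a check of the labels. Magi2 (ENSRNOG00000013962) stood, in counts per 1000000 counts of its library (CPM, on library sizes scaled by TMM), at 30.4, 21.1 and 40.4 CPM in S-SCAM KD replicates 1 to 3, against 82.8, 74.7 and 95.8 CPM in Control replicates 1 to 3. Every S-SCAM KD culture lay below every Control culture, and the mean was 30.6 ± 9.64 CPM in S-SCAM KD and 84.4 ± 10.6 CPM in Control (SD, n = 3 each), or 36.3% of Control. The log2 fold change, S-SCAM KD over Control, was -1.46 ± 0.27 (SE) with an adjusted p of 0.228 by edgeR's quasi-likelihood test, and -1.44 with an adjusted p of 0.00124 by DESeq2. The exact two-sided permutation test gave p = 0.1, the smallest that 3 against 3 allows.

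Libraries held 18350062, 29654651 and 21949362 counts in S-SCAM KD replicates 1 to 3 and 23357757, 13061705 and 24874466 counts in Control replicates 1 to 3. S-SCAM KD replicate 2 stood apart on the first principal component of all tested genes, at 76.9, with the other cultures between -31.1 and 25.0. In bulk RNA, fewer cells of a type and less RNA per cell cannot be told apart.

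None of the 10 genes passed the edgeR threshold of 0.05 on the adjusted p, and neither did any other gene of the 13917 tested (0%). DESeq2 called 0 of the 10 beside 195 of 14832 genes (1.31%), and limma-voom called 0 of the 10 beside 0% of all genes. The study's own run, with an earlier version of DESeq2, has Gria4 among its differentially expressed genes. At an unadjusted edgeR p under 0.05, Gria1, Gria4 and Cacng8 were lower in S-SCAM KD, which is 3 of 10 beside 7.14% of all genes lower at that level. The fitted log2 fold change was below 0 for 10 of 10, beside 52.4% of all genes, with a median of -0.54 beside -0.02 over all genes tested. Without S-SCAM KD replicate 2, 1 of the 10 was lower at an unadjusted p under 0.05, beside 4.41% of all genes, and Gria3 turned to 0.034 on the log2 scale. The count was also 1 of 10 without Control replicate 3, beside 4.46% of all genes. The 3 S-SCAM KD cultures lay wholly below the 3 Control cultures for Gria1, Gria4, Cacng8 and Cnih3, which is 4 of 10 beside 10.2% of all genes. The other 6 genes overlapped between the groups. Without S-SCAM KD replicate 3, where 2 cultures stand against 3, 7 of 10 lay lower without overlap, beside 20.1% of all genes.

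**Figure D1:**
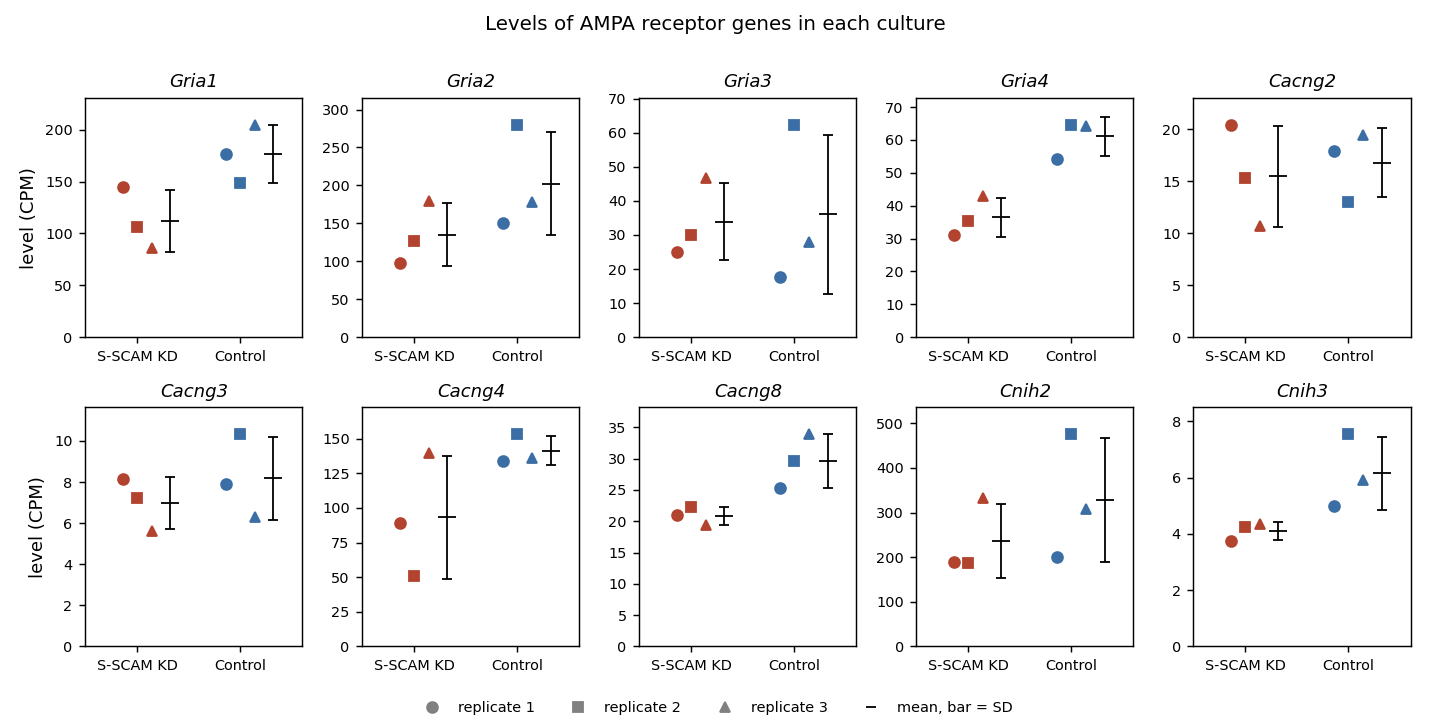
Level of each of the 10 genes in CPM (y axis from 0) in S-SCAM KD and Control cultures (x axis). Each symbol is 1 culture, with its shape giving the replicate number, and the bar is the mean ± SD of 3 cultures. Gria1, Gria4, Cacng8 and Cnih3 show no overlap between the groups, while Gria3, Cacng2 and Cacng3 overlap widely.

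RefSeq promoter windows on the GRCr8 build were at hand for 6 of the 10 genes (Gria4, Cacng2, Cacng3, Cacng8, Cnih2 and Cnih3), each taken as the 250 bases before the annotated gene start. The windows shown are those at hand for genes without overlap between groups, none of which had an adjusted p under 0.05 with all cultures in. Gria1 lacked overlap too but had no window. The windows are Gria4 at chr8:10319882-10320131 on the minus strand, Cacng8 at chr1:74691004-74691253 on the minus strand and Cnih3 at chr13:95631219-95631468 on the plus strand. Capitals mark each CG dinucleotide, and reading is 5′ to 3′ on the strand of the gene.
Gria4: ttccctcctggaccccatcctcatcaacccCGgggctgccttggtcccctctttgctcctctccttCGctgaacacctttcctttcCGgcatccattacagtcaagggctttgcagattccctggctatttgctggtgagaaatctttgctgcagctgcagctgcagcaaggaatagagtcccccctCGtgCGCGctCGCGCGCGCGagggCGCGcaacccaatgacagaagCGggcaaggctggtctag
Cacng8: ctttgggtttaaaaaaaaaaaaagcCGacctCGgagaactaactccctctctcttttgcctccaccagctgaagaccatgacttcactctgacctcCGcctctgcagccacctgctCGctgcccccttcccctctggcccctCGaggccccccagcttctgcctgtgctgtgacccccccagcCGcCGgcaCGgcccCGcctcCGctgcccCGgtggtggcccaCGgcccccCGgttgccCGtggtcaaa
Cnih3: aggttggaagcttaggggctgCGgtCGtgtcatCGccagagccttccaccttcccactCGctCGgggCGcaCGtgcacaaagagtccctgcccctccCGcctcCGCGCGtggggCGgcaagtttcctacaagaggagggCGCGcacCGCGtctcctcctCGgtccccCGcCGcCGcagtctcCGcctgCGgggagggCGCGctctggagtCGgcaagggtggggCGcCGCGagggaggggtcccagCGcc
The CG pairs cluster in the last part of the Gria4 window, next to the gene start, and spread through the whole Cnih3 window. GC content was 59.6% in Gria4, 64.8% in Cacng8 and 72.4% in Cnih3, with 14, 14 and 29 CG dinucleotides, beside a median of 51.2% and 5 CG dinucleotides over 33469 promoters of the same length. The GC box GGGCGG, searched on both strands, occurred in the Cnih3, Cacng3 and Cnih2 windows, 3 of 6, beside 30.5% of all promoters. It was not among the letters of the Gria4, Cacng8 and Cacng2 windows. Cacng2 had the lowest GC content of the 6 windows, at 38.4%, and held the letters TATAAA, searched on both strands, at 2 places, beside 12.9% of all promoters with at least 1. These matches are a description of sequence and were not set against the expression values.

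Among the GluA subunits, Gria4 and Gria1 lay lower in every S-SCAM KD culture than in any Control culture, Gria2 averaged lower with overlap, and Gria3 averaged about the same. Gria4 (ENSRNOG00000006957, rn5 chromosome 8, 1542037 to 2069626) encodes GluA4, a subunit of fast-gating receptors that is prominent early in hippocampal development and in interneurons. Its level was 31.1, 35.5 and 42.9 CPM in S-SCAM KD replicates 1 to 3, against 54.2, 64.6 and 64.4 CPM in Control replicates 1 to 3. The highest S-SCAM KD culture stayed under the lowest Control culture, and the spread within each group was about as large as the gap. The mean was 36.5 ± 5.98 CPM in S-SCAM KD and 61.1 ± 5.94 CPM in Control (SD, n = 3 each), or 59.7% of Control. The log2 fold change was -0.74 ± 0.21 (SE), with a 95% interval of -1.22 to -0.27 and an adjusted p of 0.347 by edgeR and 0.156 by DESeq2. Gria4 had the smallest unadjusted edgeR p of the 10, 0.00661. Without S-SCAM KD replicate 3, the culture with the highest S-SCAM KD level of Gria4, DESeq2 called it with an adjusted p of 0.0239, a setting in which 5.04% of all genes were called.

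Gria1 (ENSRNOG00000045816, rn5 chromosome 10, 42257921 to 42571220) encodes GluA1, whose tail is a phosphorylation target in synaptic plasticity. In S-SCAM KD replicates 1 to 3 it stood at 144, 106 and 85.9 CPM, against 177, 149 and 205 CPM in Control replicates 1 to 3. The groups did not overlap, but S-SCAM KD replicate 1 and Control replicate 2 nearly touched. With libraries scaled to total counts alone the order of these 2 cultures turned, at 145 CPM in S-SCAM KD replicate 1 against 139 CPM in Control replicate 2. The mean was 112 ± 29.7 CPM in S-SCAM KD and 177 ± 28.0 CPM in Control (SD, n = 3 each). Its log2 fold change was -0.66 ± 0.24 (SE), with a 95% interval of -1.21 to -0.10, and the adjusted p was 0.416 by edgeR and 0.352 by DESeq2.

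Gria2 (ENSRNOG00000028589, rn5 chromosome 2, 198991678 to 199112785) encodes GluA2, the subunit that makes the channel impermeable to calcium once its transcript is edited. It measured 98.2, 126 and 179.9 CPM in S-SCAM KD replicates 1 to 3, against 150.1, 280.0 and 178 CPM in Control replicates 1 to 3. S-SCAM KD replicate 3 matched Control replicate 3, and Control replicate 2 stood far above the rest. On the log2 scale the difference was -0.59 ± 0.31 (SE), with a 95% interval from -1.28 to 0.11 and an edgeR adjusted p of 0.524. Without Control replicate 2 it was -0.27.

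Gria3 (ENSRNOG00000007682, rn5 chromosome X, 127656584 to 127922234) encodes GluA3, which pairs mostly with GluA2. It measured 25.0, 29.9 and 46.6 CPM in S-SCAM KD replicates 1 to 3, against 17.8, 62.3 and 27.9 CPM in Control replicates 1 to 3. Control cultures held the lowest and the highest of the 6 values. Its log2 fold change was -0.08 ± 0.45 (SE), and its 95% interval ran from -1.11 to 0.94. The sign was positive with limma-voom (0.13) and without Control replicate 2 (0.58).

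Summed over the 4 GluA genes, the level was 299, 298 and 355 CPM in S-SCAM KD replicates 1 to 3, against 399, 556 and 475 CPM in Control replicates 1 to 3. The sums of the groups did not overlap, with a mean of 317 ± 32.9 CPM in S-SCAM KD and 476 ± 78.5 CPM in Control (SD, n = 3 each).

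The subunit mix was compared as the share of each gene in the counts of Gria1 to Gria4, a measure that does not depend on library scaling, though longer transcripts yield more reads. Gria1 made up 48.3%, 35.6% and 24.2% in S-SCAM KD replicates 1 to 3, against 44.3%, 26.8% and 43.1% in Control replicates 1 to 3. Gria2 made up 32.9%, 42.4% and 50.6% in S-SCAM KD replicates 1 to 3, against 37.6%, 50.4% and 37.4% in Control replicates 1 to 3. Within each group these shares varied widely, with the Gria2 share high where the Gria1 share was low. The ratio of Gria1 to Gria2 counts, not corrected for transcript length and read only between cultures, was 1.47, 0.840 and 0.478 in S-SCAM KD replicates 1 to 3, against 1.18, 0.532 and 1.15 in Control replicates 1 to 3.

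Gria3 averaged 10.5% ± 2.41 in S-SCAM KD and 7.18% ± 3.57 in Control, and Gria4 averaged 11.5% ± 0.924 in S-SCAM KD and 12.9% ± 1.12 in Control (SD, n = 3 each). The difference in mean share, S-SCAM KD minus Control, was -2.03 percentage points for Gria1, 0.17 for Gria2, 3.33 for Gria3 and -1.47 for Gria4. Exact two-sided permutation tests gave p = 0.9, 0.9, 0.3 and 0.3 in that order, and 0.9, 0.9, 0.6 and 0.6 after adjustment over the 4 shares. With 3 cultures a group no share could reach a p under 0.1. The differences for Gria1 and Gria2 changed sign when single cultures were left out.

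**Figure D2:**
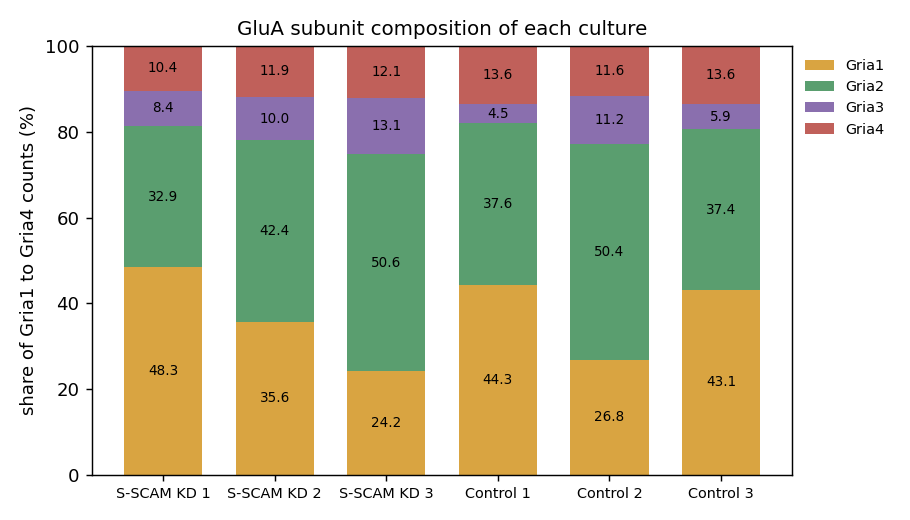
Share of each GluA subunit gene in the summed counts of Gria1 to Gria4 (y axis, %, each bar adding to 100) for the 3 S-SCAM KD cultures and the 3 Control cultures (x axis). The Gria1 and Gria2 shares vary widely between cultures of the same group, while the Gria4 share stays between 10.4% and 13.6%.

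Of the TARPs, Cacng8 was lower in every S-SCAM KD culture than in any Control culture, Cacng4 averaged lower with wide spread, and Cacng2 and Cacng3 differed by less than the spread between replicates. Cacng8 (ENSRNOG00000014348, rn5 chromosome 1, 63321710 to 63341943) encodes TARP γ-8, the member most enriched in the hippocampus. It stood at 20.9, 22.3 and 19.4 CPM in S-SCAM KD replicates 1 to 3, against 25.3, 29.7 and 33.9 CPM in Control replicates 1 to 3. The S-SCAM KD cultures lay close together and all below the lowest Control culture. The mean was 20.9 ± 1.42 CPM in S-SCAM KD and 29.6 ± 4.32 CPM in Control (SD, n = 3 each), or 70.4% of Control. On the log2 scale the difference was -0.51 ± 0.22 (SE), with a 95% interval of -1.0 to -0.0095 and an adjusted p of 0.452 by edgeR and 0.471 by DESeq2.

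Cacng4 (ENSRNOG00000003262, rn5 chromosome 10, 95688305 to 95746619) encodes TARP γ-4, which is prominent in the developing brain and is also made by glia. It measured 89.2, 50.8 and 139.5 CPM in S-SCAM KD replicates 1 to 3, against 134, 153 and 136 CPM in Control replicates 1 to 3. The Control cultures agreed closely, while S-SCAM KD replicate 3 sat among them and S-SCAM KD replicate 2 far below. The mean was 93.2 ± 44.5 CPM in S-SCAM KD and 141 ± 10.6 CPM in Control (SD, n = 3 each). Its log2 fold change was -0.60 ± 0.33 (SE) with an edgeR adjusted p of 0.546. It was -0.27 without S-SCAM KD replicate 2 and -1.01 without S-SCAM KD replicate 3. Without S-SCAM KD replicate 3, DESeq2 called Cacng4, with an adjusted p of 0.0413, a setting in which 5.04% of all genes were called.

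Cacng2 (ENSRNOG00000006226, rn5 chromosome 7, 119222819 to 119343985) encodes stargazin, the founding TARP. Its level was 20.4, 15.3 and 10.7 CPM in S-SCAM KD replicates 1 to 3, against 17.9, 13.0 and 19.4 CPM in Control replicates 1 to 3. It was the only one of the 10 whose highest value fell in an S-SCAM KD culture, replicate 1. The log2 fold change was -0.12 ± 0.30 (SE), with a 95% interval from -0.81 to 0.57, and its sign turned without S-SCAM KD replicate 3 (0.087) and without Control replicate 3 (0.024).

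Cacng3 (ENSRNOG00000012362, rn5 chromosome 1, 199676988 to 199771889) encodes TARP γ-3, the close relative of stargazin. It stood at 8.13, 7.21 and 5.62 CPM in S-SCAM KD replicates 1 to 3, against 7.89, 10.3 and 6.32 CPM in Control replicates 1 to 3. The groups overlapped, and the log2 fold change of -0.22 ± 0.30 (SE) had a 95% interval from -0.92 to 0.47. The 4 TARPs summed to 139, 95.5 and 175 CPM in S-SCAM KD replicates 1 to 3, against 185, 206 and 196 CPM in Control replicates 1 to 3. These sums did not overlap.

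The cornichons averaged lower in S-SCAM KD with 1 of them free of overlap. Cnih3 (ENSRNOG00000022724, rn5 chromosome 13, 104655193 to 104761214) stood at 3.74, 4.23 and 4.34 CPM in S-SCAM KD replicates 1 to 3, against 4.97, 7.55 and 5.92 CPM in Control replicates 1 to 3. It had the fewest reads of the 10, from 69 to 150 counts per library, so counting error is a larger part of its spread than for Cnih2. Its log2 fold change was -0.58 ± 0.30 (SE), with a 95% interval from -1.27 to 0.11 and an edgeR adjusted p of 0.527.

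Cnih2 (ENSRNOG00000020247, rn5 chromosome 1, 227405547 to 227411186) encodes the cornichon best studied at hippocampal AMPA receptors. It measured 189.8, 188 and 332 CPM in S-SCAM KD replicates 1 to 3, against 199.99, 476 and 308 CPM in Control replicates 1 to 3. S-SCAM KD replicates 1 and 2 sat beside Control replicate 1, and S-SCAM KD replicate 3 lay above 2 of the 3 Control cultures. The log2 fold change of -0.47 ± 0.35 (SE) had a 95% interval from -1.28 to 0.34 and shrank to -0.09 without Control replicate 2.

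**Figure D3:**
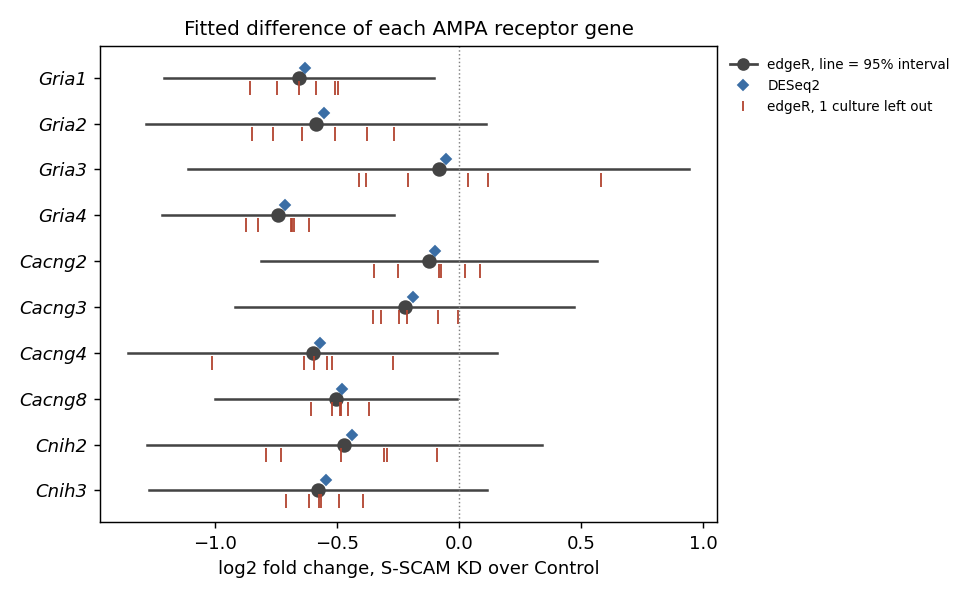
Log2 fold change of each gene, S-SCAM KD over Control (x axis), from edgeR with its 95% interval (circle and line), from DESeq2 (diamond) and from edgeR with each of the 6 cultures left out in turn (ticks). The intervals of Gria1, Gria4 and Cacng8 end below 0, and the ticks of Gria3 and Cacng2 fall on both sides of 0.

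Across cultures, the 10 genes followed more than 1 pattern. Control replicate 2 held the highest value of 7 genes, Control replicate 3 that of 2 and S-SCAM KD replicate 1 that of 1. The lowest values were scattered, 4 in S-SCAM KD replicate 3, 3 in S-SCAM KD replicate 1, 2 in S-SCAM KD replicate 2 and 1 in Control replicate 1. In log2 CPM over the 6 cultures, where all genes of a culture share 1 library and its scaling, Gria2 ran most closely with Cnih2 (Pearson's r = 0.931), Gria4 with Cnih3 (0.914) and Gria2 with Cnih3 (0.901). Cacng2 ran against Gria3 (-0.772), Cnih2 (-0.582) and Gria2 (-0.574). These coefficients describe 6 points that include the difference between groups and carry no test.

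Among 9215 genes with a mean of at least 10 CPM, compared on the same scale, those most like Gria2 over the 6 cultures were Rasa1 (r = 0.994), Slitrk2 (0.991), Arl6ip4 (0.988), Strbp (0.985) and Bmpr2 (0.983). Rasa1, a Ras GTPase-activating protein, stood at 32.4, 37.1 and 48.4 CPM in S-SCAM KD replicates 1 to 3, against 40.2, 61.6 and 47.0 CPM in Control replicates 1 to 3. Among those most like Gria4 were Cnot4 (r = 0.999), Atp2c1 (0.997), Snx7 (0.995) and Hdgfrp3 (0.986). Atp2c1, the calcium and manganese pump of the Golgi, stood at 111, 131 and 153 CPM in S-SCAM KD replicates 1 to 3, against 206, 239 and 231 CPM in Control replicates 1 to 3. The Gria4 set repeats its gap between the groups, and the Gria2 set repeats the high Control replicate 2.

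Other auxiliary and assembly proteins of AMPA receptors, 22 genes that were all tested, split into 18 with a log2 fold change below 0 and 4 above. The share below 0 over all genes was 52.4%, and the median of the 22 was -0.18. DESeq2 called 1 of them, lower, beside 1.07% of all genes called lower, and edgeR and limma-voom called 0. This list was chosen with earlier results of these data known, so its counts are no test of the list. At an unadjusted edgeR p under 0.05, 6 of the 22 were lower and 0 higher, beside 7.14% of all genes lower, and 6 of the 22 lay lower without overlap between the groups, beside 10.2% of all genes. The gene called was Nptx1, a secreted pentraxin that gathers AMPA receptors at synapses, at 5.53, 2.18 and 5.13 CPM in S-SCAM KD replicates 1 to 3, against 9.41, 11.5 and 16.2 CPM in Control replicates 1 to 3. Its log2 fold change was -1.53 ± 0.41 (SE), with an adjusted p of 0.0291 by DESeq2 and 0.346 by edgeR. Without S-SCAM KD replicate 2, DESeq2 called 0 of the 22 and 122 genes in all, against 195 of 14832 (1.31%) with all cultures in.

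Frrs1l, which assists receptor assembly in the endoplasmic reticulum, stood at 3.79, 4.33 and 4.74 CPM in S-SCAM KD replicates 1 to 3, against 7.89, 7.38 and 9.72 CPM in Control replicates 1 to 3. Shisa9 and Shisa6 belong to the CKAMP family, which modulates receptor gating and desensitization. Shisa9 stood at 10.3, 3.95 and 7.79 CPM in S-SCAM KD replicates 1 to 3, against 15.4, 17.1 and 15.3 CPM in Control replicates 1 to 3. Shisa6 stood at 7.32, 3.67 and 7.04 CPM in S-SCAM KD replicates 1 to 3, against 12, 9.68 and 16.1 CPM in Control replicates 1 to 3. The groups did not overlap for these 3 genes, whose edgeR adjusted p-values were 0.356 (Frrs1l), 0.381 (Shisa9) and 0.389 (Shisa6). Their DESeq2 adjusted p-values were 0.109, 0.126 and 0.166 in the same order. The study's own run has Frrs1l, Shisa6 and Nptx1 among its differentially expressed genes. Cacng7, a TARP of the second type, showed no such gap, with 104, 115 and 119 CPM in S-SCAM KD replicates 1 to 3, against 79.6, 140.1 and 80.8 CPM in Control replicates 1 to 3.

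Of 34 genes for trafficking and anchoring of AMPA receptors, 25 had a log2 fold change below 0 and 9 above, beside 52.4% of all genes below 0. The median of the 34 was -0.27. DESeq2 called 5 lower and 0 higher, beside 1.07% of all genes called lower, and edgeR and limma-voom called 0. These 5 were already among the study's own differential genes, and the list was chosen with earlier results of these data known. Its counts are therefore no test of the list. At an unadjusted edgeR p under 0.05, 9 were lower and 0 higher, beside 7.14% of all genes lower. Camk2d, a subunit of the kinase CaMKII, averaged 56.2 ± 6.38 CPM in S-SCAM KD and 115 ± 3.87 CPM in Control (SD, n = 3 each), with a log2 fold change of -1.04 and an adjusted p of 0.00211 by DESeq2 and 0.228 by edgeR. Nsf, the ATPase of membrane fusion that also binds the GluA2 tail, averaged 173 ± 48.3 CPM in S-SCAM KD and 388 ± 34.1 CPM in Control, with -1.17 on the log2 scale and an adjusted p of 0.0117 by DESeq2 and 0.289 by edgeR. Nsg2, an endosomal protein of neurons, averaged 815 ± 169 CPM in S-SCAM KD and 1869 ± 424 CPM in Control, with -1.20 on the log2 scale.

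Myo5b and Rab11fip2, a motor and an adaptor that carry recycling endosomes into spines, were also called by DESeq2. Myo5b averaged 10.8 ± 5.12 CPM in S-SCAM KD and 32.3 ± 5.70 CPM in Control, with -1.58 on the log2 scale. Rab11fip2 averaged 8.49 ± 1.54 CPM in S-SCAM KD and 19.6 ± 3.87 CPM in Control, with -1.21 on the log2 scale. The DESeq2 adjusted p was 0.00981 for Nsg2, 0.00981 for Myo5b and 0.0140 for Rab11fip2, and the edgeR adjusted p was 0.291, 0.319 and 0.291 for the same genes. All 5 called genes lay without overlap below Control. Of the 34, 12 lay lower without overlap, beside 10.2% of all genes, and 1 lay higher. DESeq2 called 3 of the 34 without S-SCAM KD replicate 2, where it called 122 genes in all, against 195 of 14832 (1.31%) with all cultures in. It called 7 of the 34 without S-SCAM KD replicate 3, where it called 742 genes in all (5.04%).

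The other ionotropic glutamate receptor genes, the NMDA, kainate and delta families, gave 11 of 14 below 0 and 3 above, beside 52.4% of all genes below 0. Their median log2 fold change was -0.49, close to the median of the AMPA receptor genes. DESeq2 called 2 of the 14 lower, Grin3a and Grin2c, beside 1.07% of all genes, and edgeR and limma-voom called 0. Both were already among the study's own differential genes, and this list too was chosen with earlier results of these data known. At an unadjusted edgeR p under 0.05, 6 were lower and 0 higher, beside 7.14% of all genes lower. Grin3a, a subunit of NMDA receptors with weak calcium flux, stood at 21.8, 7.86 and 16.2 CPM in S-SCAM KD replicates 1 to 3, against 52.7, 45.3 and 45.9 CPM in Control replicates 1 to 3 (log2 fold change -1.65, adjusted p 0.00296 by DESeq2 and 0.291 by edgeR). Grin2c, an NMDA receptor subunit of cerebellum and glia, stood at 2.98, 0.762 and 3.94 CPM in S-SCAM KD replicates 1 to 3, against 12.9, 6.32 and 14.3 CPM in Control replicates 1 to 3 (-2.14, adjusted p 0.0150 by DESeq2 and 0.346 by edgeR). Grin2a and the kainate receptor gene Grik2 had log2 fold changes of -1.19 and -1.02, with DESeq2 adjusted p-values of 0.0616 and 0.118. The study's own run also has Grin2a and the kainate receptor gene Grik4 among its differentially expressed genes. Whether the AMPA receptor genes differ less than these other receptor genes was not tested.

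Marker genes of cell types that the cultures can hold were read beside these values. Markers of neurons in general summed to 6468, 9221 and 7368 CPM in S-SCAM KD replicates 1 to 3, against 6165, 10054 and 9910.4 CPM in Control replicates 1 to 3. Of these, 0 of 15 were called by edgeR, DESeq2 or limma-voom. At an unadjusted edgeR p under 0.05, 2 of 15 were lower, beside 7.14% of all genes. Glutamatergic principal neuron markers summed to 787, 970.3 and 751 CPM in S-SCAM KD replicates 1 to 3, against 809, 1047 and 1212 CPM in Control replicates 1 to 3. Their log2 fold change was below 0 for 8 of 10, beside 52.4% of all genes, with a median of -0.41. Neurod6, a transcription factor of principal neurons, stood at 90.6, 125 and 96.7 CPM in S-SCAM KD replicates 1 to 3, against 177, 168 and 197 CPM in Control replicates 1 to 3. GABAergic interneuron markers had a median of 0.16, with 9 of 16 above 0 and 7 below, beside 52.4% of all genes below 0. At an unadjusted edgeR p under 0.05, 3 of 16 were higher and 0 lower, beside 1506 of 13917 genes in either direction, with 7.14% of all genes lower. Without overlap between the groups, 2 of 16 lay higher and 1 lower, beside 10.2% of all genes lower. The share of all genes higher without overlap was not counted. Dlx5 and Sp9, which lay higher without overlap, had log2 fold changes of 0.74 and 0.64 (edgeR adjusted p 0.415 and 0.418). The vesicular transporter gene Slc32a1 had a log2 fold change of 0.88 (edgeR adjusted p 0.397), while Gad2, an enzyme of GABA synthesis, had -0.47 (edgeR adjusted p 0.485) and Reln, a secreted matrix protein, -0.92 (edgeR adjusted p 0.499).

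Oligodendrocyte lineage markers summed to 773, 686 and 2183 CPM in S-SCAM KD replicates 1 to 3, against 624, 1764 and 1371 CPM in Control replicates 1 to 3. Gria2, Gria3 and Cnih2 showed the same pattern of cultures in part, being high in S-SCAM KD replicate 3 and Control replicate 2 and low in S-SCAM KD replicate 1 and Control replicate 1. Precursors of this lineage are known to make AMPA receptors, and their receptor gene Pdgfra stood at 55.1, 51.3 and 227 CPM in S-SCAM KD replicates 1 to 3, against 82.8, 273 and 321 CPM in Control replicates 1 to 3. Astrocyte markers summed to 5443, 2037 and 4727 CPM in S-SCAM KD replicates 1 to 3, against 9143, 4538 and 4261 CPM in Control replicates 1 to 3. S-SCAM KD replicate 2, which had the least Cacng4, also had the least of these markers, but the other cultures did not keep that order. Control replicate 1 had the most of the markers and the lowest Control level of Cacng4 (134 CPM). S-SCAM KD replicate 1 had more of the markers than Control replicates 2 and 3 but less Cacng4 (89.2 against 153 and 136 CPM).

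Microglia markers summed to 6.67, 0.416 and 2.61 CPM in S-SCAM KD replicates 1 to 3, against 83.9, 13.2 and 6.16 CPM in Control replicates 1 to 3. All 7 of these markers that were tested had an unadjusted edgeR p under 0.05 and were lower, beside 7.14% of all genes, with a median log2 fold change of -3.55. DESeq2 called 3 of them lower, beside 1.07% of all genes, and edgeR and limma-voom called 0. Markers near 0 in S-SCAM KD could pass the filter on low counts only through Control, so these counts are no test of the list. Tyrobp had 6, 0 and 5 counts in S-SCAM KD replicates 1 to 3, against 117, 15 and 14 in Control replicates 1 to 3. Of the markers not tested, Cx3cr1 was at 0 in 2 S-SCAM KD cultures and 1 Control culture. Interferon-stimulated genes summed to 1397, 303 and 1239 CPM in S-SCAM KD replicates 1 to 3, against 293, 155 and 133 CPM in Control replicates 1 to 3. DESeq2 called 11 of 17 higher, beside 1.31% of all genes called in either direction. Some of the 17 passed the filter only through the S-SCAM KD cultures, so this count is no test of the list either. Ifit1 had 83, 30 and 21 counts in S-SCAM KD replicates 1 to 3, against 3, 2 and 0 in Control replicates 1 to 3. The part of each of these lists in the values of the AMPA receptor genes was not tested.

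**Figure D4:**
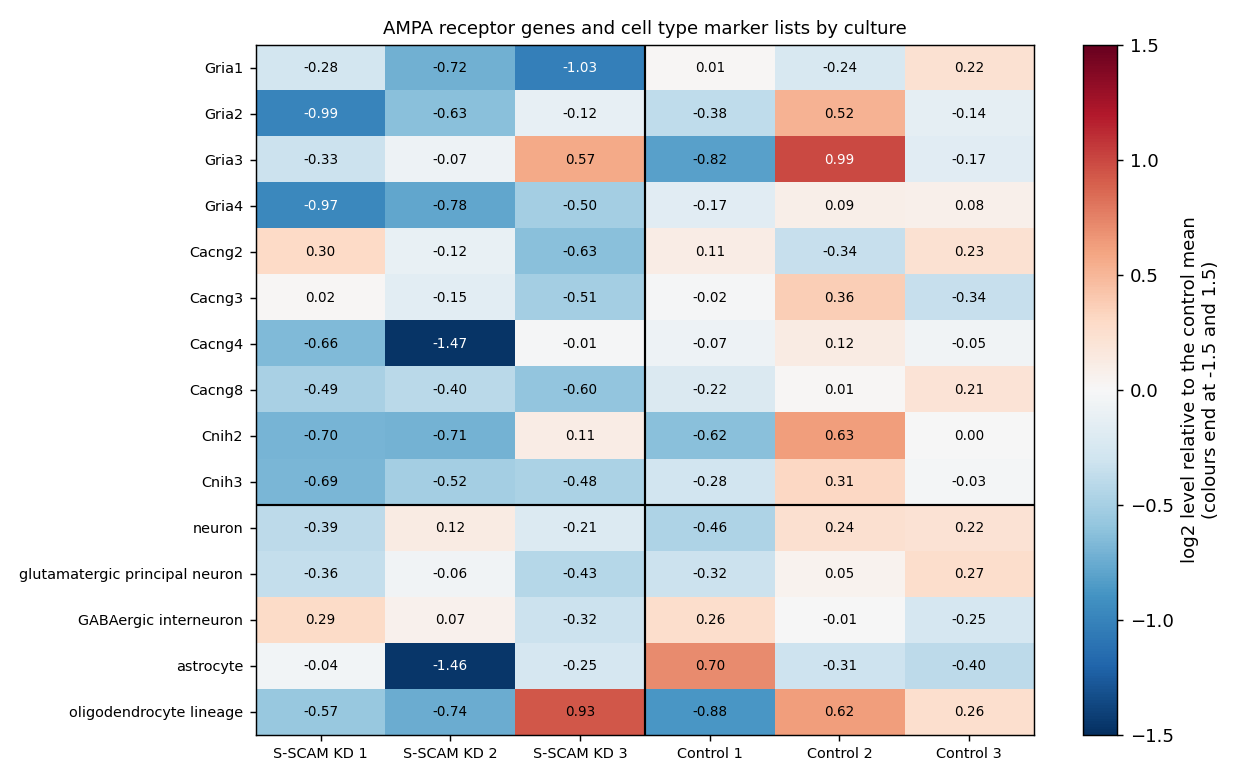
Log2 level of each AMPA receptor gene (upper rows) and of the summed CPM of 5 cell type marker lists (lower rows) relative to the mean log2 level of the 3 Control cultures, for each S-SCAM KD and Control culture (columns). Gria4 is below 0 in each S-SCAM KD culture (-0.97, -0.78 and -0.50), and the oligodendrocyte lineage row is highest in S-SCAM KD replicate 3 (0.93) and Control replicate 2 (0.62), where Gria3 is highest too (0.57 and 0.99).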

How the data were processed

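RNA from 6 hippocampal cultures was sequenced by the authors as single-end reads from TruSeq RNA v2 libraries, a kit that does not keep strand, so reads of overlapping genes cannot be told apart. The authors demultiplexed with CASAVA 1.8.2, checked reads with FastQC 0.10.0, aligned with STAR 2.3.0 to rn5, sorted with SAMtools 1.2 and counted with HTSeq 0.6. The deposited values are raw counts per Ensembl gene. The Ensembl release is not given in the sources used here. The authors' own test was DESeq2 1.8.1. With it the paper places Gria4 among its differentially expressed genes and gives the expression of stargazin (Cacng2) as unaffected.

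Groups follow the condition named in the sample titles, which number the cultures as biological replicates. The main test was the edgeR quasi-likelihood F-test (edgeR 4.0.16 in R 4.3.3; TMM, filterByExpr with a minimum count of 10, condition only), with Benjamini-Hochberg adjustment over 13917 genes and a threshold of 0.05. DESeq2 1.42.0, limma-voom (limma 3.58.1), other scalings and filters, a replicate block and leaving out each culture were alternatives. CPM are on TMM-scaled library sizes. GluA shares were compared by exact permutation. Scripts were tested on simulated data. Gria1 was named by its protein name in the table, Gria2 and Gria3 by their description and the others by symbol. Promoters are from RefSeq (GRCr8). The deposited table also gives each gene's length in bases with introns, so levels were not compared between genes. Shares and the Gria1 to Gria2 ratio are of read counts and were compared between cultures only. Camk2a is not analysed here.

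The members and all gene lists were chosen with earlier results of these data known. The text names all 10 genes, Magi2, genes of each other list with small edgeR p-values or a DESeq2 call (at most 4 by p, not all of them given), and the 5 genes most like Gria2 and most like Gria4, the gene of the 10 with the smallest p. Of the genes most like Gria4, 1 is not reported here. Cacng7, Pdgfra, Reln and Cx3cr1 were added after their values were seen.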

Additional observations from a re-analysis of the deposited data

How the results depend on the processing

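Over all genes, edgeR called 0 with its filter, 8 without a filter on low counts and 0 to 1 with each culture left out, while DESeq2 called 195, and 47 to 742 with each culture left out. Of the 10 AMPA receptor genes, edgeR called 0 under every alternative run. DESeq2 called 0 to 2 of them with each culture left out (2 without S-SCAM KD replicate 3, beside 5.04% of all genes). At an unadjusted p under 0.05 the count was 1 to 3 with each culture left out. The number without overlap between groups was 4 to 7 with each culture left out (7 without S-SCAM KD replicate 3, beside 20.1% of all genes) and 3 with libraries scaled to total counts. Magi2 had a log2 fold change of -1.44 and passed the threshold with DESeq2, and ranged from -1.71 to -1.22 with each culture left out. Gria3 turned positive with limma-voom (0.13) and with the replicate block (0.069), and ranged from -0.41 to 0.58 with each culture left out. Cacng2 ranged from -0.35 to 0.087. The difference in share ranged from -8.17 to 3.91 percentage points for Gria1 and from -4.15 to 4.72 for Gria2. The cause of these shifts was not tested. Gria1, Gria2, Gria4, Cacng3, Cacng4, Cacng8, Cnih2 and Cnih3 stayed below 0 under each alternative run. The deposited column names also share a number between same-numbered cultures of the groups, which may mark pairs. Same-numbered cultures deviated together with r = 0.603, 0.102 and -0.082, and 2 of the 3 S-SCAM KD cultures did not correlate best with their own number. With 3 cultures a group, these values cannot show whether the cultures were paired. The main tests used no pairing, while the replicate block did. The replicate block left 0 genes called, with 1686 in place of 1506 genes at an unadjusted p under 0.05. With 3 cultures a group, intervals on the log2 scale were wide also for genes with many reads such as Gria2 (1812 to 4497 counts a library), while Cnih3 had 69 to 150 counts a library.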

Other observations

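The enzymes that edit glutamate receptor transcripts were read as further background. Adarb1, the enzyme known to edit the calcium permeability site of Gria2, averaged 115 ± 27.4 CPM in S-SCAM KD and 117 ± 32.1 CPM in Control (SD, n = 3 each), with a log2 fold change of -0.03 ± 0.26 (SE). Adar, which is also an interferon-stimulated gene, averaged 249 ± 53.9 CPM in S-SCAM KD and 182 ± 24.9 CPM in Control, with 0.45 ± 0.23 (SE) and an edgeR adjusted p of 0.506. Adarb2, a brain-specific relative, averaged 22.5 ± 5.20 CPM in S-SCAM KD and 25.0 ± 7.26 CPM in Control. The groups overlapped for all 3 enzymes, and gene counts do not show how far the transcripts were edited.

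The skeletal muscle channel subunit Cacng1 and its relative Cacng6, which are not AMPA receptor TARPs, were near 0 in every culture. Their sum was 0.271, 0.277 and 0.310 CPM in S-SCAM KD replicates 1 to 3, against 0.329, 0 and 0.395 CPM in Control replicates 1 to 3.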
